A study of Mus musculus with 7 samples.

Results

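The miR-181 family was examined in CD4+ T cells from the draining lymph nodes of mouse models of heart disease. Its 5 members were taken by name from the array: mmu-miR-181a-5p, mmu-miR-181b-5p, mmu-miR-181c-5p and mmu-miR-181d-5p, which are the 5p arms of the family, and mmu-miR-181a-1-3p, the passenger arm of the Mir181a-1 hairpin. They are 5 of the 1881 mouse miRNA names on the array, and all 5 were among the 423 miRNAs tested here, those that the scanner software marked as detected on all EAM arrays or on all LAD arrays. Each miRNA was measured by 1-colour Agilent hybridisation of 100 ng of total RNA per sample, labelled with Cy3.

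The samples were 4 from the myocarditis model (EAM) and 3 from the myocardial infarction model (LAD), with 1 array each. The sample labels place the EAM samples at day 6 and the LAD samples at day 3 after induction; in the description of the series these days are exchanged. In both groups cells were bound by a biotin-conjugated CD4 antibody and positively selected on streptavidin beads. Strain, age and sex are not given in the sources used here, and neither group is an untreated control. Model, day and the column of the slide changed together, so their parts in any difference cannot be told apart, and bulk RNA cannot tell fewer cells of a type from less RNA per cell.

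A miRNA guides Argonaute proteins to messenger RNAs, mostly through its seed, the bases near the 5′ end that pair with the target. The miR-181 family is known in T cell biology for setting the sensitivity of the T cell receptor: miR-181a-5p restrains several phosphatases that dampen receptor signalling, and it is abundant in immature thymocytes and low in mature T cells. The family is transcribed from clusters that each hold a pair of hairpins.

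The mature sequences show why the 4 5p members are treated as a family and the passenger arm is not. They are given 5′ to 3′ as RefSeq has them, with the seed (bases 2 to 8) in capitals; all 5 members matched.
miR-181a-5p: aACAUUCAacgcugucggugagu
miR-181b-5p: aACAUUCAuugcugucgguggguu
miR-181c-5p: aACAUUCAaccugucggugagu
miR-181d-5p: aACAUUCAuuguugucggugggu
miR-181a-1-3p: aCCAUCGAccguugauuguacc

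All 4 5p arms have the same seed, and no other name among the 1679 mature mouse miRNAs in the RefSeq table has it. The seed of miR-181a-1-3p differs and is shared with miR-181c-3p. Aligned from the 5′ end without gaps, miR-181b-5p and miR-181d-5p differ at 1 of 23 positions. miR-181a-5p and miR-181b-5p differ at 3 of 23 positions, and miR-181a-5p and miR-181c-5p share their first 10 and last 12 bases, which together are the whole of miR-181c-5p.

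Likeness at the 3′ end matters for the measurement, because each member was read by 2 short DNA probes that pair with that end. The shorter probe of each 5p member is shown 5′ to 3′, with the longest run that also pairs with another member in capitals.
miR-181a-5p probe: ACTCACCGACAGc
miR-181b-5p probe: ACCCACCGACAgc
miR-181c-5p probe: ACTCACCGACAGgttgaa
miR-181d-5p probe: ACCCACCGACAacaat
The miR-181a-5p and miR-181c-5p probes share a run of 12 bases, and the miR-181b-5p and miR-181d-5p probes share a run of 11 bases. None of the other members pairs with a probe of miR-181a-1-3p over a run longer than 5 bases. Pairing of these probes with arms outside the members, such as miR-181c-3p and miR-181a-2-3p, was not examined. Binding of one member to the probe of another was not tested.

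In GRCm38.p6, Mir181a-1 and Mir181b-1 lie 97 bases apart on the plus strand of chromosome 1, with no overlapping gene in the RefSeq table, and Mir181a-2 and Mir181b-2 lie 1019 bases apart on the plus strand of chromosome 2 within Nr6a1, a nuclear receptor gene, and its antisense gene Nr6a1os. Mir181c and Mir181d lie 85 bases apart on the minus strand of chromosome 8, also with no overlapping gene in that table. Mature miR-181a-5p lies at chr1:137966468-137966490 and chr2:38852741-38852763, and mature miR-181b-5p at chr1:137966650-137966673 and chr2:38853845-38853868. Mature miR-181c-5p lies at chr8:84178924-84178945, miR-181d-5p at chr8:84178759-84178781 and miR-181a-1-3p at chr1:137966508-137966529. The array cannot divide miR-181a-5p or miR-181b-5p between their 2 hairpins, but miR-181a-1-3p comes from the chromosome 1 copy; it differs from miR-181a-2-3p at 2 of 22 positions.

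The arrays of the groups differed in brightness. EAM arrays detected 445 to 471 miRNAs and LAD arrays 341, 380 and 311. The 75th percentile of signal over the 569 probes detected on all arrays was 249 to 325 on EAM arrays and 78.9, 156 and 64.0 on LAD arrays, so every LAD array was dimmer than every EAM array (exact permutation test, two-sided, p = 0.0571; with 35 splits of 7 arrays it can be no lower). Main values are therefore background-corrected log2 signals that were quantile-scaled between arrays, and unscaled values are given beside them.

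miR-181a-5p, miR-181b-5p and miR-181a-1-3p, the passenger arm from chromosome 1, were higher in LAD than in EAM samples on the scaled values. The differences were 9.08-fold, 6.06-fold and 4.23-fold, the last from EAM signals close to background. miR-181c-5p and miR-181d-5p did not pass the test, with differences of 1.65-fold and 1.71-fold in the same direction. Thus 3 of 5 members passed an adjusted p of 0.05 (limma, Benjamini-Hochberg over all 423 miRNAs) in the direction of LAD. In the same fit 23.6% of all tested miRNAs were higher in LAD and 36.2% were higher in EAM, and 59.8% passed in either direction, a count of 253 that ranged from 75 to 344 when 1 array was left out and was 0 with unequal variances and no limma moderation (120 at an unadjusted p under 0.05).

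miR-181a-5p, the member best known for tuning the T cell receptor, had scaled log2 signals of 7.51, 7.90, 7.62 and 7.67 on EAM arrays 1 to 4 and 9.05, 11.97 and 11.55 on LAD arrays 1 to 3. The groups did not overlap, which held with LAD higher for 22.2% of tested miRNAs, and LAD array 1 lay well below the other LAD arrays. The EAM mean was 7.68 ± 0.17 (SD, n = 4) and the LAD mean 10.86 ± 1.58 (SD, n = 3). The difference, EAM minus LAD, was -3.18 (SE 0.63, limma adjusted p = 0.0118). It passed the test when any 1 array was left out, at differences from -4.09 to -2.62. The call was lost without scaling (-0.95), with median centring (-1.82) and with each array set to its 75th percentile over all probes (-1.97), and also when the groups were given unequal variances (adjusted p = 0.184).

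miR-181b-5p, made from the same clusters as miR-181a-5p, had scaled log2 signals of 5.50, 5.73, 5.75 and 5.85 on EAM arrays and 5.78, 10.22 and 8.91 on LAD arrays. LAD array 1 fell inside the EAM range, and only LAD arrays 2 and 3 were above it. The means were 5.71 ± 0.15 (SD, n = 4) and 8.31 ± 2.28 (SD, n = 3), a difference of -2.60 (SE 0.90, limma adjusted p = 0.0398). The call was kept without LAD array 1, at -3.86, and was lost without any other single array, at limma adjusted p up to 0.125 (without LAD array 3, at -2.30).

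miR-181a-1-3p, the strand cut from the same hairpin as the chromosome 1 copy of miR-181a-5p, had scaled log2 signals of 4.85, 4.93, 4.76 and 4.89 on EAM arrays and 4.94, 8.73 and 7.14 on LAD arrays. LAD array 1 was at the EAM level, and the scanner software did not mark the miRNA as detected there. The EAM signals were close to background: of the 15 spots of one probe, 3, 4, 0 and 4 were marked well above background on EAM arrays 1 to 4, and none of the other probe's 15 spots was. On LAD arrays 2 and 3 all 15 spots of both probes were marked. The means were 4.86 ± 0.07 (SD, n = 4) and 6.94 ± 1.90 (SD, n = 3), a difference of -2.08 (SE 0.75, limma adjusted p = 0.0446). This call too was kept only without LAD array 1, at -3.08, and the adjusted p was up to 0.124 without 1 other array (LAD array 3, at -1.98).

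miR-181c-5p, from the chromosome 8 cluster, had scaled log2 signals of 6.62, 7.22, 6.63 and 6.88 on EAM arrays and 6.64, 8.79 and 7.24 on LAD arrays. Only LAD array 2 stood clear of the EAM range, and LAD array 3 was level with the highest EAM array. Its difference was -0.72 (SE 0.46, limma adjusted p = 0.202) and became -1.18 when LAD array 1 was left out and -0.10 when LAD array 2 was. Its probes differed, with -1.14 on the 19-base probe and -0.30 on the 18-base probe.

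miR-181d-5p, its cluster partner, had scaled log2 signals of 5.14, 5.46, 5.21 and 5.37 on EAM arrays and 4.91, 7.56 and 5.74 on LAD arrays. LAD array 1 was below every EAM array, LAD array 2 was far above and LAD array 3 slightly above. Part of this signal was close to background. Of the 15 spots of the 16-base probe, 1, 7, 0 and 6 were marked well above background on EAM arrays 1 to 4. On LAD arrays 1 and 3 it had 0 such spots. The 17-base probe had all 15 marked on every EAM array, but 1 on LAD array 1 and 13 on LAD array 3. The difference was -0.77 (SE 0.54, limma adjusted p = 0.232), which became -1.35 when LAD array 1 was left out and -0.029 when LAD array 2 was.

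**Figure D1:**
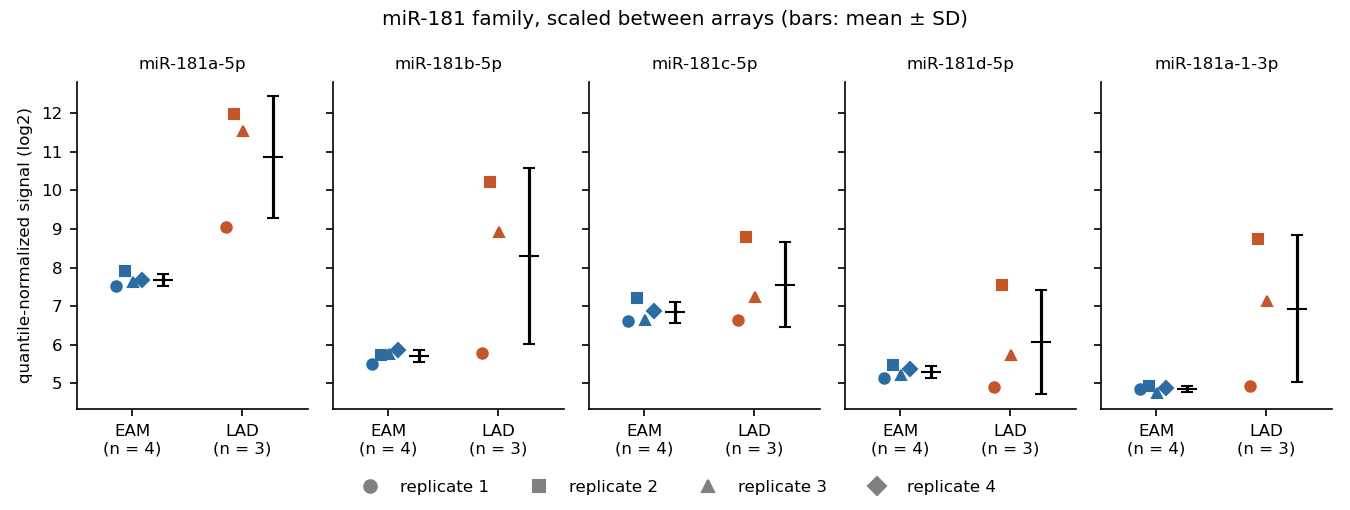
Scaled log2 signal of the 5 miR-181 members (vertical axis) on the 4 EAM and 3 LAD arrays (points, marked by replicate), with the group mean and SD beside them. LAD array 2 is the highest point for every member, at 11.97 for miR-181a-5p, and LAD array 1 lies near the EAM points for every member except miR-181a-5p.

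Spread between spots was small beside spread between LAD arrays. Of the 15 spots of a member's probe on 1 array, those without outlier marks had an SD of 0.0189 to 0.119 in log2 signal. The median SD was 0.0733, and no spot was saturated. SDs over the LAD arrays were 1.11 to 2.28, and those over the EAM arrays 0.07 to 0.28. Both probes of every member differed toward LAD in their group means, by -2.72 and -3.64 for miR-181a-5p and by -2.35 and -2.85 for miR-181b-5p. For the 18-base probe of miR-181c-5p and the 16-base probe of miR-181d-5p, only LAD array 2 was above every EAM array. LAD array 1 was below every EAM array for these probes, and LAD array 3 was within the EAM range.

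Without scaling between arrays, LAD array 2 was above and LAD array 1 below every EAM array for all 5 members. miR-181a-5p was then at 8.0, 8.43, 7.88 and 8.21 on EAM arrays and 7.34, 11.38 and 8.52 on LAD arrays, and miR-181b-5p was at 6.05, 6.08, 5.81 and 6.09 against 5.10, 9.82 and 6.81. LAD array 3 was just above the highest EAM array for miR-181a-5p and clearly above it for miR-181b-5p. miR-181a-1-3p showed the same order, with 5.26, 5.16, 4.81 and 5.04 on EAM arrays and 4.53, 8.39 and 5.77 on LAD arrays.

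The chromosome 8 members were above EAM only on LAD array 2 in these unscaled values. miR-181c-5p was at 7.17, 7.73, 6.81 and 7.31 on EAM arrays and 5.70, 8.45 and 5.82 on LAD arrays. miR-181d-5p was at 5.61, 5.76, 5.26 and 5.55 against 4.51, 7.22 and 4.83. On LAD arrays 1 and 3 both were therefore below all 4 EAM arrays. The median over all tested miRNAs was also lower on these LAD arrays, at 4.94 and 4.66 against 5.72 to 5.98 on EAM arrays. In the unscaled fit 0 of 5 members passed the test (limma), and 0 had an unadjusted p under 0.05. In that fit 0.473% of the 423 miRNAs were higher in LAD and 70.7% higher in EAM.

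**Figure D2:**
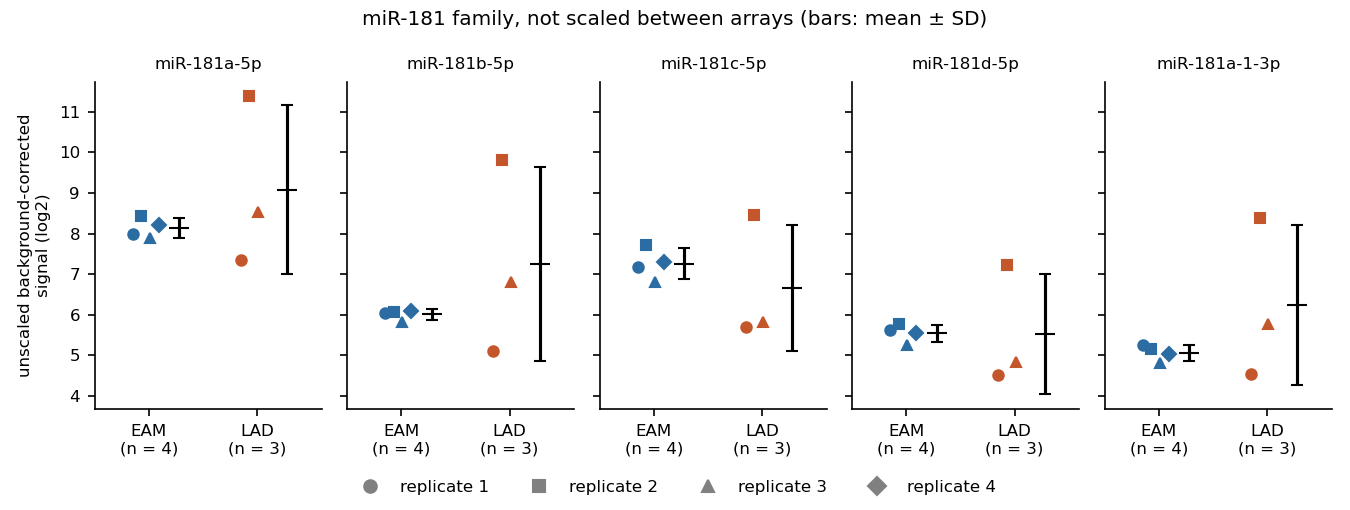
Background-corrected log2 signal of the 5 members without scaling between arrays (vertical axis), by group, with points for arrays and bars for the group mean and SD. LAD array 2 lies above every EAM array for all 5 members, and LAD array 1 lies below every EAM array for all 5. LAD array 1 was dim in general, with a median over tested miRNAs of 4.94 against 5.72 to 5.98 on EAM arrays.

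On LAD array 2 the members held leading places among all tested miRNAs. Unscaled, only 22 of 423 miRNAs (5.2%) were above every EAM array there, and all 5 members were among them. Ordered by distance from the EAM mean, miR-181b-5p came first at 3.82 (14.1-fold), followed by miR-181a-1-3p at 3.32, measured from EAM signals close to background, and miR-181a-5p at 3.25 (9.50-fold). miR-128-3p was in place 4 at 3.12, miR-181d-5p in place 5 at 1.67 (3.19-fold) and miR-181c-5p in place 7 at 1.20 (2.30-fold). Scaled, the members took places 1, 2, 4, 5 and 7, and 37.4% of tested miRNAs were above every EAM array.

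On LAD array 3, 3 members were above every EAM array without scaling and the other 2 were not. Unscaled distances from the EAM mean there were 0.80 for miR-181b-5p (place 7 of 423), 0.70 for miR-181a-1-3p (place 8) and 0.39 for miR-181a-5p (place 12). miR-181c-5p and miR-181d-5p were below the EAM mean, in places 178 and 104. Only 5 miRNAs (1.18%) were above every EAM array on both LAD arrays 2 and 3 without scaling: miR-376c-3p, miR-3063-3p and the members miR-181a-5p, miR-181b-5p and miR-181a-1-3p, a set named after its values were seen. Scaled, LAD array 3 was above the EAM mean by 3.87 for miR-181a-5p (place 3 of 423), 3.21 for miR-181b-5p (place 7) and 2.29 for miR-181a-1-3p (place 14). For miR-181c-5p and miR-181d-5p it was above by 0.40 and 0.44, in places 123 and 119.

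**Figure D3:**
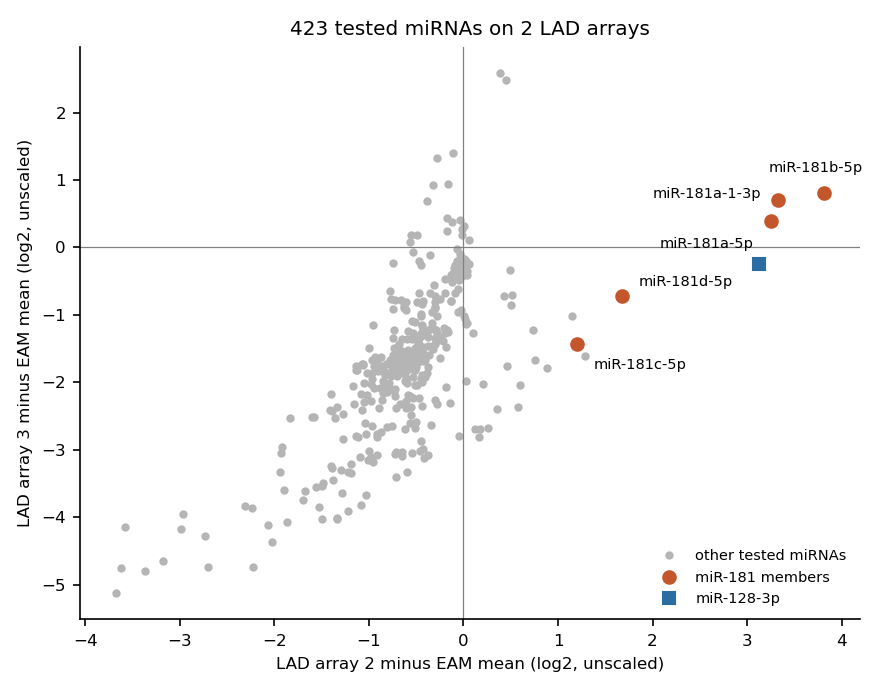
Unscaled log2 signal of 423 tested miRNAs on LAD array 2 (horizontal axis) and LAD array 3 (vertical axis), each less the mean of the 4 EAM arrays. The 5 members (large points) lie toward the right, from 1.20 to 3.82 on LAD array 2. The non-members miR-128-3p, at 3.12, and miR-130b-3p, at 1.29, lie among them. miR-181a-5p, miR-181b-5p and miR-181a-1-3p are also above 0 on LAD array 3.

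The share of each array's summed miRNA signal gave another view of the same measurement. miR-181a-5p held 0.0672% to 0.103% of the summed total gene signal on EAM arrays and 0.249%, 1.66% and 1.09% on LAD arrays 1 to 3. miR-181b-5p held 0.0101% to 0.0127% in EAM and 0.0259%, 0.458% and 0.244% in LAD. Every LAD array was above every EAM array for both members by this measure, LAD array 1 least. How many of all tested miRNAs were separated in this way by share is not given here. Their median difference on shares, EAM minus LAD, was 0.089 in log2, and 22.2% were higher in LAD (limma).

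By the same share miR-181c-5p held 0.0250% to 0.0515% on EAM arrays and 0.0515%, 0.187% and 0.118% on LAD arrays. Its difference on this scale was -1.65 in log2 and passed the test (limma, Benjamini-Hochberg), the only set of values of the 12 tried in which it did; 22.2% of tested miRNAs were higher in LAD on shares and 17.5% higher in EAM. miR-181d-5p held 0.00544% to 0.00929% in EAM and 0.00854%, 0.0726% and 0.0343% in LAD and did not pass. miR-181a-1-3p held 0.00160% to 0.00243% in EAM, 0.161% and 0.101% on LAD arrays 2 and 3, and was listed at 0 on LAD array 1.

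In the authors' deposited table, log2 values of miR-181a-5p were 7.71, 8.12, 7.91 and 7.96 on EAM arrays and 8.56, 11.91 and 10.68 on LAD arrays. LAD array 1 was again the lowest of its group and above every EAM array. The difference in the authors' deposited table was -2.46 for miR-181a-5p, which passed the test (limma adjusted p = 0.0275), and -2.07 for miR-181b-5p and -1.49 for miR-181a-1-3p, which did not (limma adjusted p = 0.0590 and 0.0610). For miR-181c-5p and miR-181d-5p the authors' deposited table gave -0.60 and -0.56, neither past the threshold. So 1 of 5 members passed in the authors' deposited table, where 21.5% of tested miRNAs were higher in LAD and 35.2% higher in EAM.

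Over 12 sets of values that differ in background correction, scaling and summary, miR-181a-5p was higher in LAD in all 12 and passed the test in 9, at differences from -3.39 to -0.95. miR-181a-1-3p and miR-181b-5p were also higher in LAD in all 12, with 5 and 4 passes. miR-181c-5p was higher in LAD in 11, with 1 pass, and miR-181d-5p in 11, with 0 passes and a lowest limma adjusted p of 0.0548. Over these sets 0.473% to 24.1% of tested miRNAs were higher in LAD. The set without scaling gave the exceptions, at 0.60 for miR-181c-5p and 0.027 for miR-181d-5p.

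**Figure D4:**
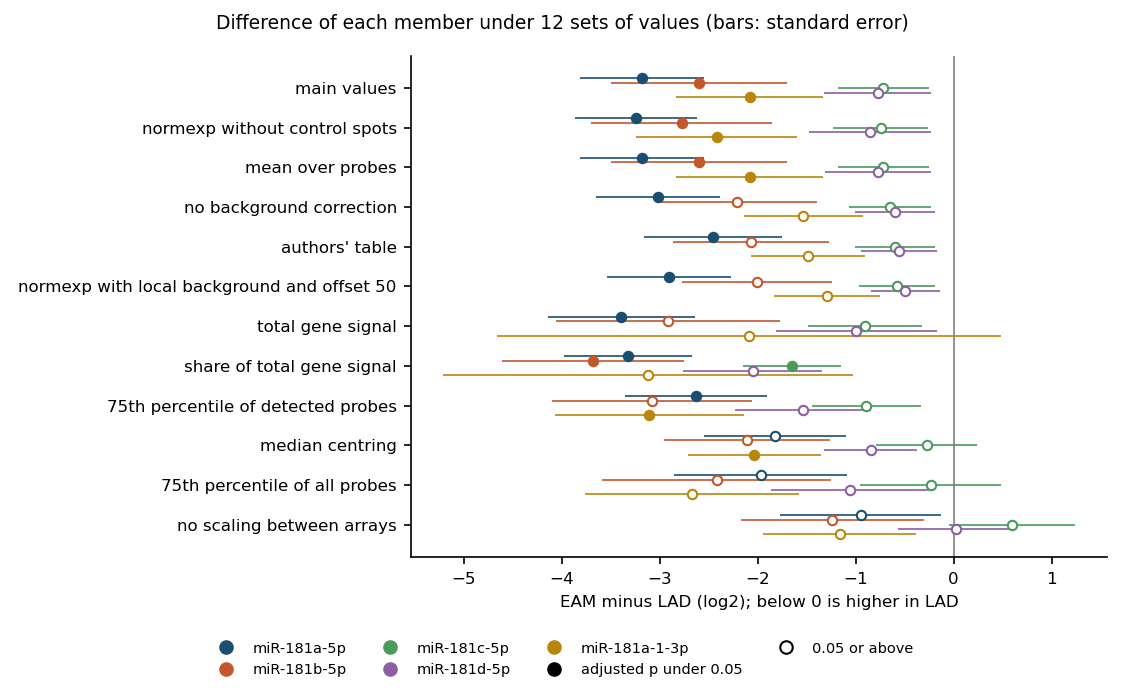
Difference of each member between groups, EAM minus LAD in log2 units (horizontal axis), under 12 sets of values (rows), with bars for the standard error and filled points where the limma adjusted p was under 0.05. Points for miR-181a-5p, miR-181b-5p and miR-181a-1-3p lie left of 0 in every row, while those for miR-181c-5p and miR-181d-5p cross to 0.60 and 0.027 without scaling.

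How far members moved relative to each other was tested on their difference within each array. The scaled log2 signal of miR-181a-5p less that of miR-181c-5p was 0.84 ± 0.13 (SD, n = 4) on EAM arrays and 3.30 ± 0.96 (SD, n = 3) on LAD arrays, with no overlap. That gap was larger in LAD by 2.46. For miR-181a-5p less miR-181d-5p it was larger in LAD by 2.41, for miR-181b-5p less miR-181c-5p by 1.88 and for miR-181b-5p less miR-181d-5p by 1.82. Each had an exact permutation p of 0.0571 (two-sided, at the lower limit of the design) and 0.0816 after Benjamini-Hochberg adjustment over 10 pairs, so no pair could pass. Without scaling these 4 changes, EAM minus LAD, were -1.55, -0.98, -1.84 and -1.27, each again at an exact permutation p of 0.0571.

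The remaining pairs across clusters differed by less, miR-181c-5p less miR-181a-1-3p by 1.36 and miR-181d-5p less miR-181a-1-3p by 1.31 (exact permutation p = 0.0571 for each). Without scaling they differed by 1.76 and 1.19. Between members with hairpins in a common cluster the gaps differed by less than all of these on scaled values. The largest, -1.10, was near the 1.31 in size. Only miR-181c-5p and miR-181d-5p come from 1 cluster alone. miR-181a-5p and miR-181b-5p also come from chromosome 2, and the array cannot divide them. miR-181c-5p less miR-181d-5p differed by 0.06 between groups (exact permutation p = 0.743), but by 0.57 without scaling (exact permutation p = 0.0571, the lower limit). miR-181a-5p less miR-181b-5p differed by -0.58 (exact permutation p = 0.286) and, without scaling, by 0.29. miR-181b-5p less miR-181a-1-3p differed by -0.52 (exact permutation p = 0.171) and miR-181a-5p less miR-181a-1-3p by -1.10 (exact permutation p = 0.0571); without scaling these were -0.076 and 0.21. These p-values do not show that the members moved alike: on LAD array 1 miR-181a-5p was 1.38 above its EAM mean while miR-181b-5p was 0.08 and miR-181a-1-3p 0.08 above theirs.

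Beyond the family, miR-128-3p had the pattern most like that of miR-181a-5p. Likeness was the root mean square difference of log2 signal, each miRNA less its own mean, over the 7 arrays, among the miRNAs detected on all of them. It was 0.51 for miR-181b-5p and 0.63 for miR-128-3p, followed by 1.25 for miR-20b-5p, 1.28 for miR-15a-5p, 1.31 for miR-130b-3p and 1.33 for miR-149-5p. Among members, miR-181d-5p was at 1.28 (place 5 of all) and miR-181c-5p at 1.32 (place 7), between these. The member miR-181a-1-3p was not ranked, because it was not marked as detected on LAD array 1.

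miR-128-3p had scaled log2 signals of 6.87, 7.32, 6.87 and 7.17 on EAM arrays and 6.91, 11.05 and 9.60 on LAD arrays. LAD arrays 2 and 3 were far above EAM, and LAD array 1 was within the EAM range. Its difference was -2.13 (limma adjusted p = 0.0559) and did not pass; without LAD array 1 it was -3.27 and passed (limma adjusted p = 0.00234). It held place 2 on unscaled values too, whereas miR-20b-5p and miR-15a-5p were then in places 104 and 112. The members miR-181d-5p and miR-181c-5p were then in places 3 and 5, at 0.61 and 0.85.

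**Figure D5:**
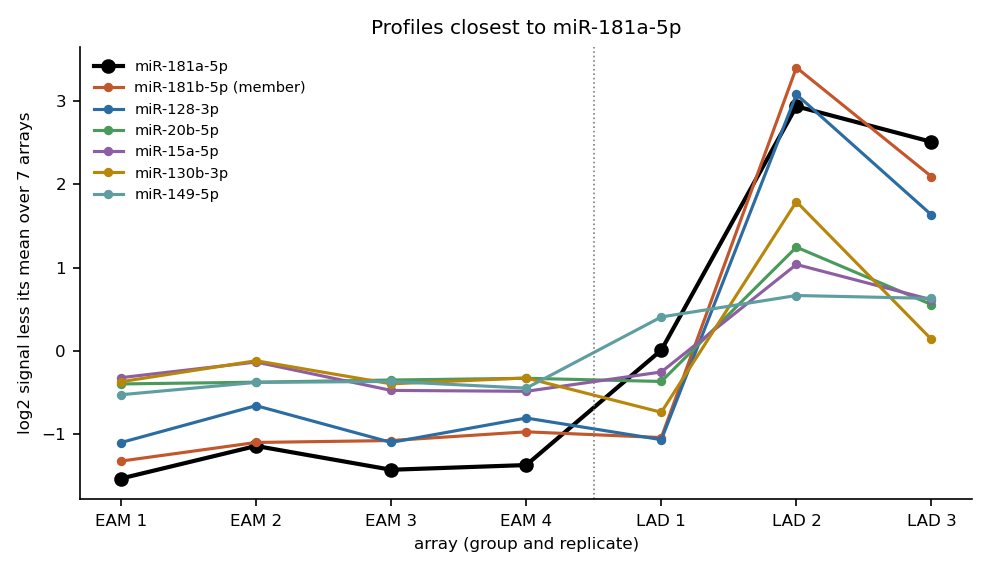
Scaled log2 signal of miR-181a-5p and of 6 other miRNAs, each less its own mean over 7 arrays (vertical axis), by array (horizontal axis). The 6 are the nearest to it among miRNAs detected on all 7 arrays, leaving out the chromosome 8 members. miR-181a-1-3p was not ranked. miR-181b-5p and miR-128-3p follow miR-181a-5p most closely, and every line except that of miR-149-5p, which is nearly level on LAD arrays 2 and 3, peaks clearly on LAD array 2.

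Other arms of the family were not measured above background. miR-181a-2-3p, miR-181b-1-3p, miR-181b-2-3p, miR-181c-3p and miR-181d-3p were detected on 0 of 7 arrays, with scaled log2 signals of 4.00 to 4.54. Each had 0 to 2 of 210 spots marked well above background.

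Of 22 other miRNAs of T cell receptor signalling and activation, 19 were tested: 6 were higher in EAM, 1 was higher in LAD and 12 did not pass. The shares over all 423 were 36.2% toward EAM and 23.6% toward LAD. Their median difference was 0.31, the same as the median of all 423 tested. miR-146a-5p, which restrains NF-kB signalling downstream of the receptor, was higher in EAM by 1.88 (limma adjusted p = 0.0204), with 9.11 to 9.27 on EAM arrays and 8.75, 6.40 and 6.84 on LAD arrays.

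miR-155-5p, induced when T cells are activated, was higher in EAM by 1.12 (limma adjusted p = 0.0264), at 9.59 to 9.66 on EAM arrays and 9.43, 8.17 and 7.93 on LAD arrays. For both of these miRNAs LAD arrays 2 and 3, which were highest for miR-181a-5p, were lowest on scaled values. Without scaling this order did not hold for miR-155-5p, at 7.58, 7.90 and 6.27 on LAD arrays 1 to 3. The call of miR-146a-5p was lost when EAM array 2, 3 or 4 or LAD array 3 was left out, at a limma adjusted p of at most 0.0701. The call of miR-155-5p was lost without any 1 EAM array or LAD array 3, at a limma adjusted p of at most 0.0863. miR-142a-3p, common to blood cells, was higher in EAM by 0.35 (limma adjusted p = 0.0341). miR-19b-3p, of the oncomiR-1 cluster that promotes lymphocyte proliferation, was the 1 higher in LAD, at a difference of -0.72 (limma adjusted p = 0.0236), and this turned to 1.78 in favour of EAM without scaling. Both of these calls were lost without any 1 EAM array or LAD array 3, and that of miR-142a-3p also without LAD array 1, at limma adjusted p of at most 0.0996 and 0.0730 for miR-142a-3p and miR-19b-3p.

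Marker miRNAs of cell types were compared in the same fit, and their counts stand beside the same 36.2% of all tested miRNAs higher in EAM and 23.6% higher in LAD. All 5 markers of mature lymphocytes were tested, 3 were higher in EAM and none in LAD, and together they held 19.97% to 22.6% of summed signal on EAM arrays and 17.0%, 13.1% and 13.5% on LAD arrays. Myeloid miR-223-3p was higher in LAD (difference -1.64, limma adjusted p = 0.0127) with a share of 0.0262% to 0.0283% in EAM and 0.226%, 0.0887% and 0.141% in LAD, while miR-223-5p was not detected. By share and on scaled values it was highest on LAD array 1, where the miR-181 members were lowest within LAD. Without scaling it was at 6.90 to 7.12 on EAM arrays and 7.39, 7.49 and 6.13 on LAD arrays, so LAD array 3 was below every EAM array.

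Red cell markers held 0.0235% to 0.0452% of summed signal in EAM and 0.103%, 0.0262% and 0.0553% in LAD, with 3 of 4 undetected on every array. Of 5 epithelial markers tested, 4 were higher in EAM; each was detected on 0 or 1 LAD arrays, and together they held at most 0.0347% of summed signal on any EAM array. None of 5 stromal or 4 muscle markers was detected on any array, and of 2 endothelial markers 1 was never detected and none was tested. The part of other cells in the differences of the miR-181 family was not tested.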

How the data were processed

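The scanner files hold spot intensity values that the authors deposited; per the file headers they were extracted with Feature Extraction 10.7.3.1 on array design 070155 (mm9). Detection marks and total gene signals are from the same deposited files. The authors' deposited table holds log2 values, and the submitters' processing notes name RMA, with no version or role. Intensities were background-corrected with normexp fitted on all spots, quantile-scaled over non-control spots, and summarised by the median of spots without outlier marks and median polish over probes, then log2 (limma 3.58.1, R 4.3.3). miRNAs detected on all arrays of at least 1 group, 423 of 1881, were fitted with lmFit and eBayes and adjusted by Benjamini-Hochberg at 0.05. The test was checked on simulated data with the same spread in both groups, so the check does not cover the unequal spread found here. LAD values spread more than EAM values, so the pooled fit can give too small an error. Labels do not say that samples came from separate animals, so p-values measure only the spread between these samples. Precision is limited by the number of arrays. The members, the lists and the other miRNAs named were chosen with earlier results of these data known: all members and other arms, up to 4 listed miRNAs with the smallest p, and the 5 most like miR-181a-5p. Alternatives changed background, scaling, filter, probe summary and variance model. Sequences are from RefSeq (GRCm38.p6).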

Additional observations from a re-analysis of the deposited data

How the results depend on the processing

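miR-181a-5p kept its direction and its call in 14 of 19 alternatives, miR-181b-5p in 6 of 19 and miR-181a-1-3p in 7 of 18; none of these 3 reversed. The count of miRNAs called, 253 in the main values, was 166 with total gene signal (85 higher in EAM), 168 with shares of it, 135 among those detected on all 7 arrays, 445 without a filter, and 120, 115, 89 and 75 without EAM arrays 1 to 4 and 147, 344 and 124 without LAD arrays 1 to 3. With unequal variances it was 0 (tested without limma's moderation; 120 miRNAs and 0 members at an unadjusted p under 0.05) and with a replicate block 0 as well (limma; 180 miRNAs and 3 members at an unadjusted p under 0.05). Higher in EAM against LAD, the split of 153 and 100 became 299 and 2 without scaling, 87 and 96 by the detected probes' 75th percentile and 232 and 115 with array weights, whose fit did not reach its tolerance. The median difference of all tested miRNAs, 0.31, was 1.17 without scaling, 0.55 with the 75th percentile of all probes, 0.15 with that of detected probes and 0.73 with total gene signal. Of the members 1 was called without background correction, with local background and offset 50, with median centring, with total gene signal, in the authors' deposited table, without a filter and with array weights, and 0 with the 75th percentile of all probes, without scaling, with unequal variances and with the replicate block; leaving out 1 array gave 1 to 3. For miR-181a-5p the call was lost at -1.97 (75th percentile of all probes), -1.82 (median centring), -0.95 (no scaling), -3.18 (unequal variances) and -3.18 (replicate block). For miR-181b-5p it was lost at -2.22 (no background correction), -2.01 (local background), -2.42 (75th percentile of all probes), -3.08 (of detected probes), -2.11 (median centring), -1.24 (no scaling), -2.91 (total gene signal), -2.07 (authors' deposited table), -2.60 (no filter, and unequal variances), -0.47 (array weights), -2.65 (replicate block) and -2.35 (first probe alone), and leaving out 1 array gave -3.86 to -1.64. For miR-181a-1-3p it was lost at -1.53, -1.29, -2.67, -1.16, -2.09, -1.49, -2.08 and -0.42 under those settings in the same order without the detected-probe percentile and median centring, at -3.12 with shares, at -2.08 with unequal variances and at -2.09 with the replicate block, and leaving out 1 array gave -3.08 to -1.18. miR-181c-5p passed at -1.65 with shares and turned to 0.60 without scaling and 0.067 with array weights; miR-181d-5p turned to 0.027 and 0.24. miR-19b-3p, miR-20b-5p and miR-15a-5p turned to 0.83, 0.75 and 0.76 (75th percentile of all probes), 0.17, 0.096 and 0.097 (of detected probes), 0.90, 0.82 and 0.83 (median centring) and 1.78, 1.69 and 1.70 (no scaling). miR-130b-3p turned to 0.75 without scaling and 0.27 with array weights, and miR-149-5p to 0.033 without scaling. Between members, miR-181c-5p less miR-181d-5p turned to -0.048 (no background correction) and -0.039 (authors' deposited table), -0.074 to 0.18 with 1 array left out; without scaling miR-181a-5p less miR-181b-5p turned to 0.29 and less miR-181a-1-3p to 0.21. The labels number the samples but do not say that equal numbers are paired. Correlations of same-numbered deviations were 0.198, -0.161 and -0.192, which cannot settle it. EAM replicate 4 has no partner in the replicate block. normexp without control spots and shares of total gene signal were chosen after seeing the data. The causes were not tested.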
